A study of Sus scrofa with 3 samples.

Results

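Collagens and the proteins that are assembled with them in the extracellular matrix were examined in spermatogonia of the pig. The set was defined by gene symbol, with earlier results of these data known: collagen chains, the small leucine-rich proteoglycans DCN, LUM, BGN and FMOD, SPARC and SPARCL1, fibronectin, fibrillins, fibulins and elastin, periostin, thrombospondins and tenascin C, lysyl oxidases, nidogens and perlecan, and the PDGF receptors. Of 18730 genes in the deposited table, 69 matched, and all of these had a value above 0. They comprised 38 collagen genes and 31 others. RNA came from 3 libraries, S1, S2 and S3, all of spermatogonia that carried SSEA4 and were taken from 90-day-old pigs. The SSEA4 antigen is a carbohydrate carried on membrane lipids, and the study used it to enrich stem cells among spermatogonia. No breed, genotype or treatment is given in the sources used here. Nothing in the labels ties each library to an animal of its own. All p-values therefore rest on the spread between these libraries alone, which may be technical. A second population named in the study's design, undifferentiated spermatogonia, was not analysed here.

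Collagens are triple helices of 3 chains, which may be the same or products of different genes. Fibrillar collagens form the fibres of connective tissue, type IV collagen forms the network of basement membranes, and other types decorate fibrils, form beaded filaments or span the cell membrane. In the testis, spermatogonia rest on a basement membrane to which Sertoli cells and peritubular myoid cells contribute, and fibroblasts of the interstitium make fibrillar collagens and proteoglycans such as decorin.

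Values were deposited as FPKM, fragments per kilobase of transcript scaled to the mapped fragments of the library. The name of the table says TPM instead, and the libraries sum to 859642, 855276 and 781871. Depth is unknown, so no counting interval is given. Library S3 stood apart from the others: 2.76% of the 12340 genes whose mean was 1 FPKM or more were more than 1.5-fold lower in S3 than the mean of S1 and S2, and 1.21% were higher. In the same comparison for S1, 0.211% were lower and 1.29% higher, and for S2 0.429% were lower and 0.259% higher. Each fold between libraries is on the scale of FPKM + 1, which understates the differences of low genes. Germ cell markers stood well above the level of 1 FPKM in 11 of 11 measured genes, from ZBTB16 at 5.16 ± 0.406 to SYCP3 at 403 ± 32.6 FPKM (SD, n = 3).

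Matrix genes were expressed at low to moderate levels. Mean values ran from 0.0368 FPKM for COL10A1 to 35.1 FPKM for THBS1, and the median over the 69 genes was 2.70 FPKM, against 3.93 FPKM over all 17949 genes with a value above 0. Each gene was tested against the level of 1 FPKM with limma on log2(FPKM + 1), with Benjamini-Hochberg adjustment over all 17949 genes and a threshold of 0.05. Of the 69 genes, 48 lay above 1 FPKM, or 69.6%, where 65.6% of all genes did. Another 14 lay below, or 20.3%, where 28.5% of all genes did, and 7 were not told apart from it. These shares were near those of all genes and are not a result about the matrix set. The counts in each group of the set, given below, are to be read beside the same shares of all genes. Higher up the scale the set thinned out: 33.3% of its genes had a mean of at least 5 FPKM and 15.9% at least 10 FPKM, where 45.7% and 33.2% of all genes did. The summed FPKM of the set was 434 in S1, 387 in S2 and 347 in S3. As a share of the sum of each library this was 0.0505%, 0.0452% and 0.0443%. Without mitochondrially encoded and ribosomal protein genes in the sum it was 0.131%, 0.123% and 0.102%. The 5 highest genes, THBS1, SPARC, DCN, THBS4 and COL13A1, held 38.8% of the mean summed FPKM of the set.

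**Figure D1:**
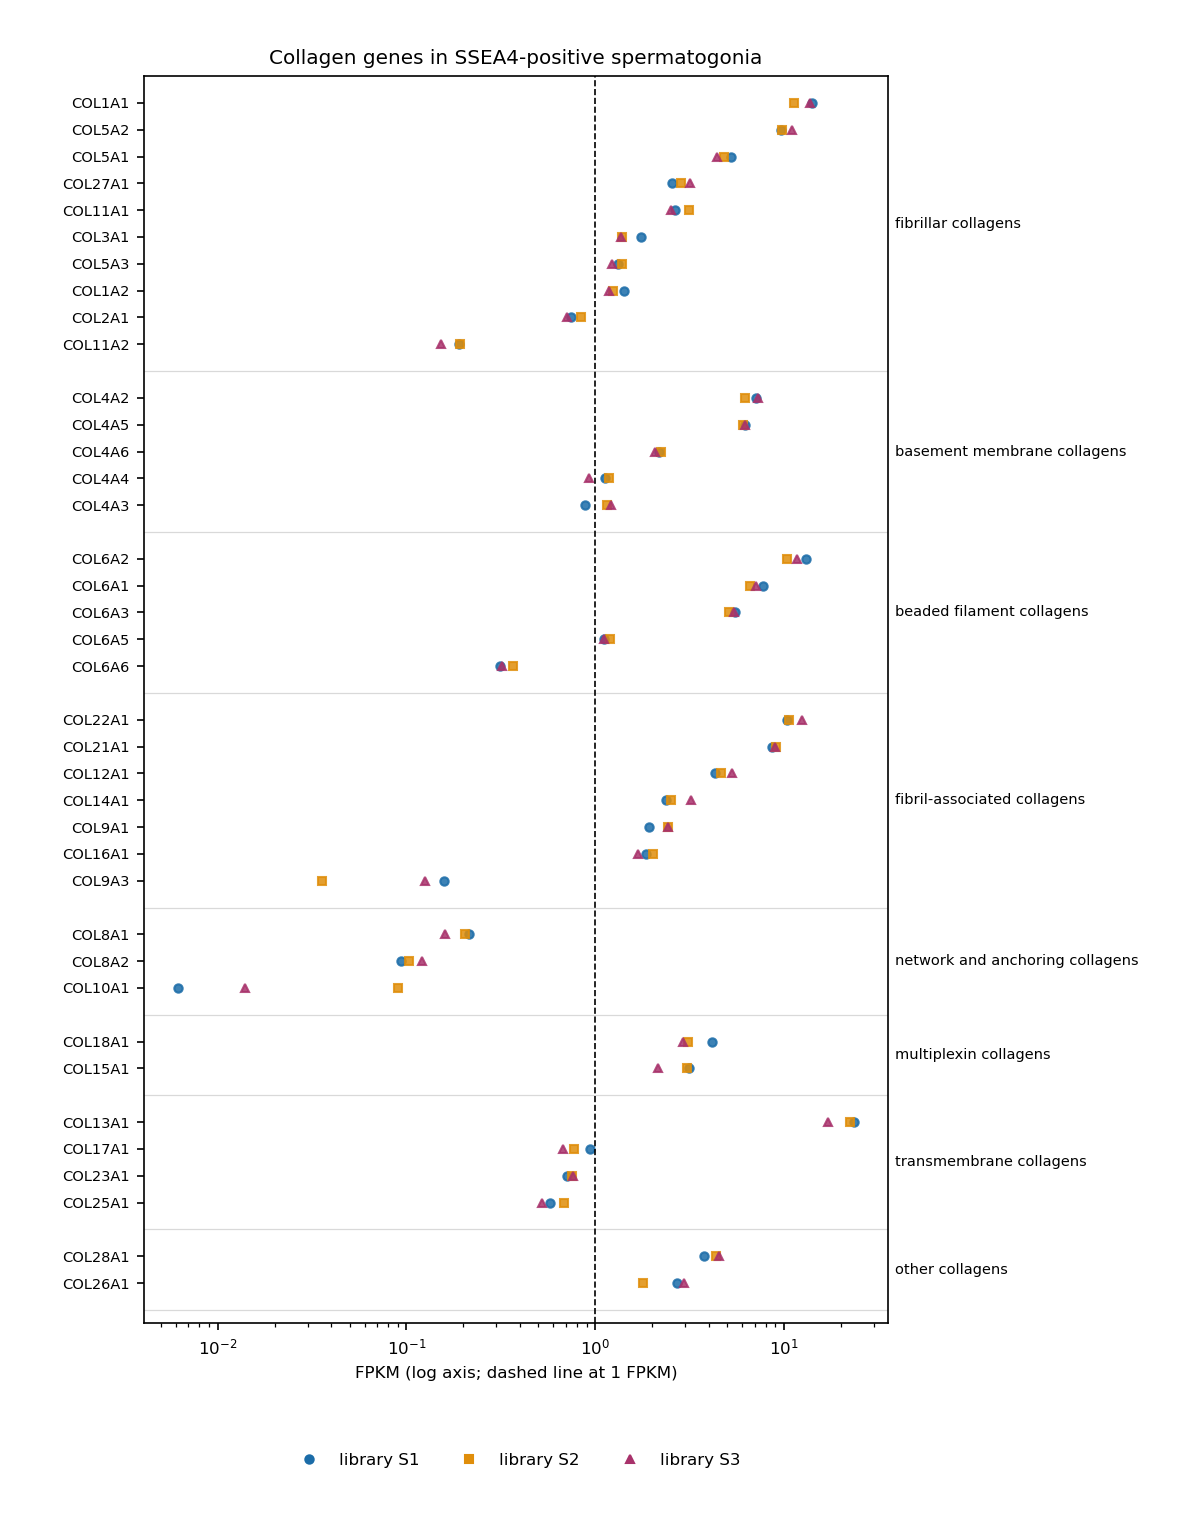
FPKM of the 38 collagen genes on a log axis, 1 row a gene, grouped by collagen type, with a point for each of the libraries S1, S2 and S3 and a dashed line at 1 FPKM. COL13A1 stands highest at 17.2 to 23.6 FPKM, and the 3 network and anchoring collagens have means of 0.193 FPKM and less.

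Among 10 fibrillar collagen genes, 8 lay above 1 FPKM and 2 below, where 65.6% and 28.5% of all genes did. COL1A1, the main chain of type I collagen, had 14.1, 11.3 and 13.8 FPKM in S1, S2 and S3, a mean of 13.1 ± 1.52 (SD, n = 3; log2 difference from the level 2.81, limma adjusted p = 6.53e-07). COL1A2, the partner chain in type I collagen, had 1.42, 1.24 and 1.18 FPKM, a mean of 1.28 ± 0.126. The 2 chains did not overlap in any library. COL3A1, whose product forms fibrils together with type I collagen, was also near the level, at 1.74, 1.396 and 1.38 FPKM. COL5A2, a chain of the type V collagen that starts and thins fibrils, had 9.67, 9.83 and 11.0 FPKM and was the second fibrillar chain in order. It overlaps WDR75 in the reference annotation. Its partner COL5A1 averaged 4.83 ± 0.434 FPKM, followed by COL27A1 at 2.87 ± 0.310 and COL11A1 at 2.77 ± 0.321, whose values overlapped. COL5A3, at 1.31 ± 0.0747 FPKM, lay just above the level (adjusted p = 0.0131). COL2A1, the collagen of cartilage, had 0.746, 0.841 and 0.706 FPKM and lay below it (log2 difference -0.18, adjusted p = 0.0110). COL11A2 lay lowest, at 0.178 ± 0.0229 FPKM. The calls of COL1A2 and COL5A3 did not hold without S1 (log2 differences 0.14 and 0.21) or without S2 (0.20 and 0.19), nor did that of COL2A1 without S1 (-0.17) or with libraries rescaled to a common sum (-0.06). A table row without a symbol, which the reference names COL24A1 and which is therefore outside the set, had 4.12, 5.01 and 6.01 FPKM.

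Of 5 genes for basement membrane collagen, 3 lay above 1 FPKM, where 65.6% of all genes did, and 2 were not told apart from it. COL4A2, a chain found in all basement membranes, had 7.09, 6.19 and 7.31 FPKM. COL4A5 had 6.23, 6.11 and 6.22 FPKM and was among the steadiest genes of the set, with a coefficient of variation of 1.09%. COL4A2 was the higher of the pair within each library, at a mean of 6.87 ± 0.594 against 6.18 ± 0.0672 FPKM for COL4A5, although its value in S2 lay below that of COL4A5 in S1. COL4A6, which pairs with COL4A5 in some membranes, stood at 2.16 ± 0.0762 FPKM. COL4A3 and COL4A4, which form the chain set with COL4A5 known from the kidney, averaged 1.08 ± 0.173 and 1.08 ± 0.133 FPKM (adjusted p = 0.458 and 0.396). COL4A3 had 0.883, 1.15 and 1.21 FPKM in S1, S2 and S3, and COL4A4 had 1.13, 1.18 and 0.931. The libraries of both lay on either side of the level. In the reference annotation these 2 genes overlap each other, and COL4A4 also overlaps RHBDD1. COL4A2 overlaps COL4A1, which was not analysed here.

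The genes for 3 proteins that link basement membrane networks had means of 6.87 to 9.02 FPKM. NID1, which bridges laminin and type IV collagen, had 9.77, 9.65 and 7.63 FPKM, a mean of 9.02 ± 1.20 (SD, n = 3). NID2, its paralogue, had 8.34, 7.47 and 5.03 FPKM, a mean of 6.95 ± 1.72. Both were lowest in S3. NID1 stood above COL4A2 in every library. HSPG2, which encodes the heparan sulfate proteoglycan perlecan, had 6.79, 6.46 and 7.36 FPKM and was highest in S3. In the reference annotation HSPG2 overlaps LDLRAD2. All 3 genes lay above 1 FPKM, where 65.6% of all genes did.

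Type VI collagen, which forms beaded filaments around cells, was represented by all of its classical chains. COL6A2 had 13.1, 10.4 and 11.7 FPKM, COL6A1 had 7.71, 6.63 and 7.16, and COL6A3 had 5.48, 5.09 and 5.44. The order COL6A2, COL6A1, COL6A3 was kept in all 3 libraries without overlap. COL6A5, at 1.11, 1.20 and 1.12 FPKM, was not told apart from the level (adjusted p = 0.113), and COL6A6, which overlaps an unnamed protein-coding gene, lay below it at 0.334 ± 0.0276 FPKM.

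Among fibril-associated collagens, 6 of 7 genes lay above 1 FPKM, where 65.6% of all genes did. COL22A1, known from tissue junctions such as those of muscle and tendon, had 10.3, 10.7 and 12.5 FPKM. COL21A1 had 8.64, 9.12 and 8.93 FPKM, a coefficient of variation of 2.70%. These 2 stood above COL12A1 at 4.76 ± 0.519 and COL14A1 at 2.70 ± 0.445 FPKM, which bind the surface of type I collagen fibrils. COL12A1 and COL14A1 were highest in S3, at 5.33 and 3.21 FPKM. COL9A1, at 2.26 ± 0.289, and COL16A1, at 1.86 ± 0.170 FPKM, completed those above the level. COL9A3, which overlaps TCFL5 in the reference annotation, lay below it at 0.159, 0.0357 and 0.126 FPKM.

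COL13A1, a collagen anchored in the cell membrane, was the highest collagen gene of the set. It had 23.6, 22.4 and 17.2 FPKM, a mean of 21.1 ± 3.41 (SD, n = 3; log2 difference from the level 3.45, adjusted p = 6.69e-07). Its lowest library, S3, stood above every library of COL1A1. The other 3 transmembrane collagens lay below 1 FPKM: COL17A1 of hemidesmosomes at 0.796 ± 0.133 (0.941, 0.769 and 0.678 in S1, S2 and S3), COL23A1 at 0.740 ± 0.0303 and COL25A1 at 0.597 ± 0.0827 FPKM. The call of COL17A1 was close to the threshold (adjusted p = 0.0395) and did not hold without S2 (log2 difference -0.15) or without S3 (-0.11), with a pseudocount of 0.1 (-0.31), with only genes of at least 0.5 FPKM tested or without the variance trend (-0.16 each), or with libraries rescaled to a common sum (-0.04). That rescaling also ended the call of COL23A1 (-0.08).

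The multiplexins COL18A1, the source of endostatin, and COL15A1, both of basement membrane zones, stood at 3.41 ± 0.677 and 2.79 ± 0.559 FPKM and overlapped. COL28A1 averaged 4.21 ± 0.392 and COL26A1 2.49 ± 0.606 FPKM, and all 4 of these genes lay above the level. COL8A1, COL8A2 and COL10A1, which form hexagonal networks, lay below it, at 0.193 ± 0.0297, 0.106 ± 0.0142 and 0.0368 ± 0.0465 FPKM. Of the values of COL10A1, that of S2, at 0.0904 FPKM, was far above those of S1, at 0.00614, and S3, at 0.0139. COL10A1 overlaps NT5DC1 in the reference annotation.

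**Figure D2:**
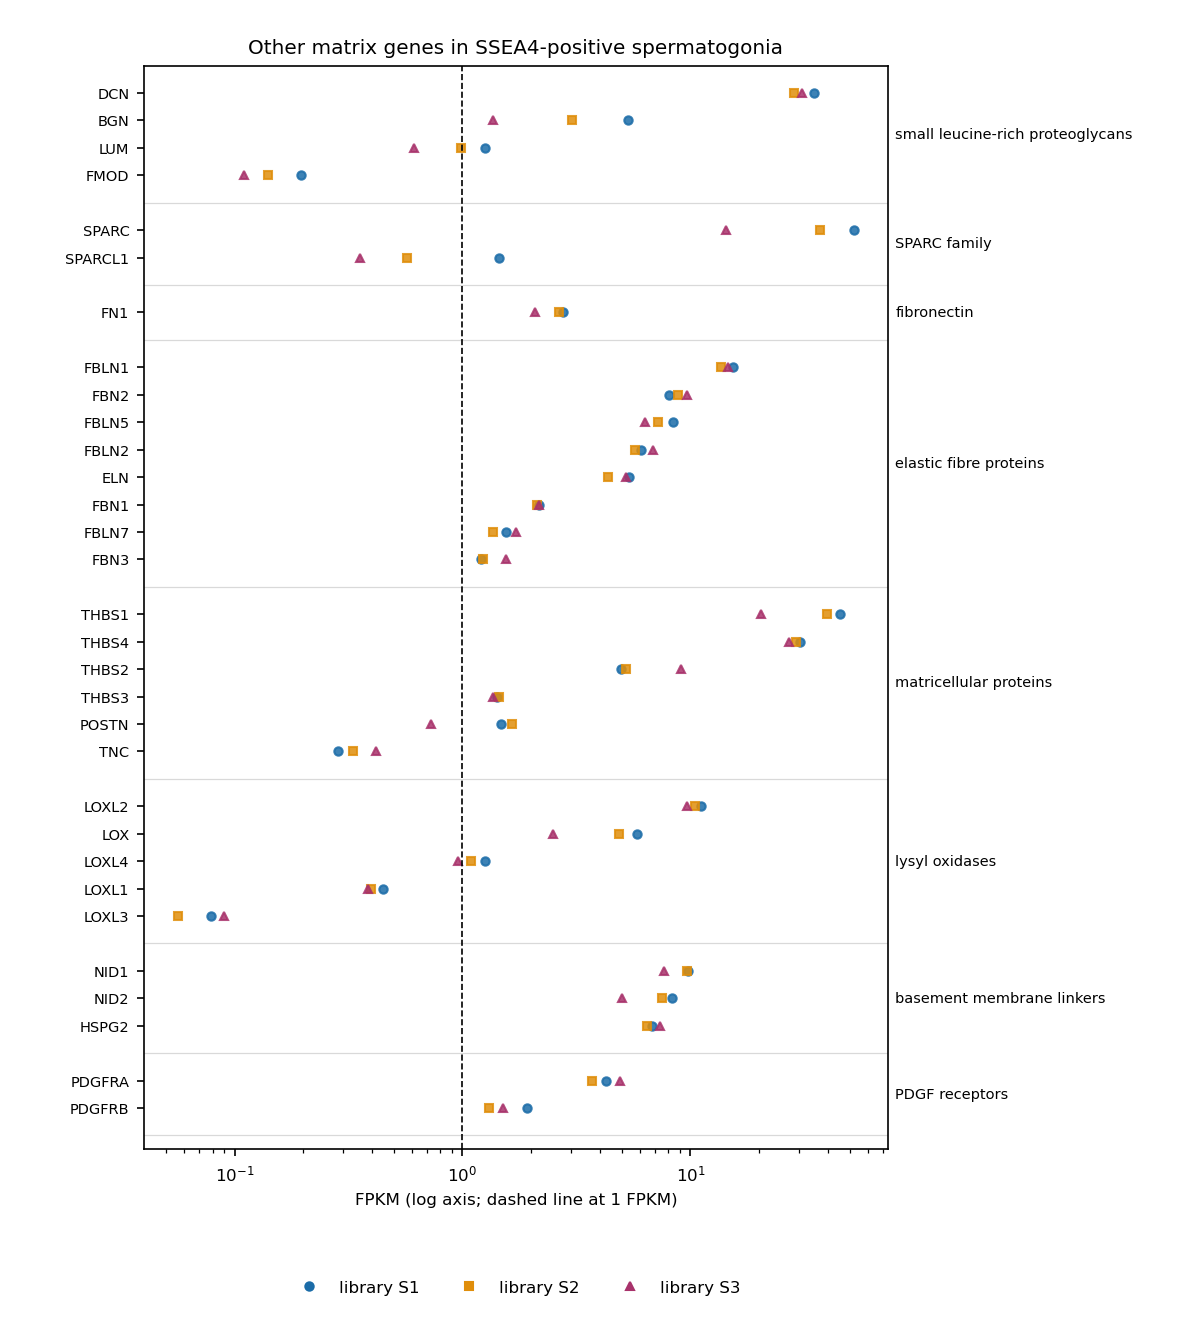
FPKM of the 31 other genes of the set on a log axis, grouped by role, with a point for each of the libraries S1, S2 and S3 and a dashed line at 1 FPKM. SPARC, BGN, THBS1 and LOX are spread widely with S3 lowest, while DCN, FBN1 and THBS4 stay close together.

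DCN, which encodes decorin, a proteoglycan that binds and spaces collagen fibrils, had 34.8, 28.5 and 31.0 FPKM, a mean of 31.4 ± 3.201 (SD, n = 3; log2 difference from the level 4.01, adjusted p = 1.29e-07). The related fibril proteoglycans were far lower. BGN, which encodes biglycan, had 5.32, 3.01 and 1.37 FPKM, and its call above the level (adjusted p = 0.0149) did not hold without S1 (log2 difference 0.62) or without S2 (0.95). LUM, which encodes lumican, had 1.26, 0.986 and 0.615 FPKM, which could not be told apart from the level (adjusted p = 0.652). Its log2 difference of -0.05 became 0.08 without S3. FMOD, which encodes fibromodulin, lay below the level at 0.148 ± 0.0434 FPKM. BGN, LUM and FMOD were each highest in S1 and lowest in S3.

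SPARC, a secreted protein that binds collagen and calcium, had 52.3, 37.1 and 14.4 FPKM, a mean of 34.6 ± 19.1 (SD, n = 3; adjusted p = 8.72e-05). The value in S1 was the highest of any matrix gene in any library, and the value in S3 was lower than those of DCN, THBS1, THBS4, COL13A1 and FBLN1 there. Its relative SPARCL1 had 1.44, 0.571 and 0.355 FPKM. SPARCL1, which overlaps DSPP in the reference annotation, was not told apart from 1 FPKM (adjusted p = 0.269), but lay below it without S1 (log2 difference -0.45).

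FN1, which encodes fibronectin, the adhesive glycoprotein abundant in fibroblast cultures, stood at 2.76, 2.64 and 2.07 FPKM. It lay above the level (log2 difference 0.80, adjusted p = 0.000248), yet ranked 10257th of 17949 genes by mean.

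All 8 genes of elastic fibres lay above 1 FPKM, where 65.6% of all genes did. FBLN1, a fibulin of basement membranes and elastic fibres, had 15.4, 13.6 and 14.6 FPKM. FBLN5, which is needed for elastic fibre assembly in mice, had 8.39, 7.22 and 6.35 FPKM, and FBLN2 had 6.10, 5.70 and 6.85. FBLN5 overlaps TRIP11 in the reference annotation. FBN2, the fibrillin that predominates in development, had 8.05, 8.81 and 9.71 FPKM, whereas FBN1, the main fibrillin of adult microfibrils, had 2.16, 2.13 and 2.16. FBN1 was the steadiest gene among the 53 whose mean was 1 FPKM or more, with a coefficient of variation of 0.931%. ELN, which encodes elastin, averaged 4.98 ± 0.546 FPKM. FBLN7 and FBN3, at 1.54 ± 0.179 and 1.33 ± 0.192 FPKM, lay just above the level, and the call of FBN3 (adjusted p = 0.0236) did not hold without S1 (log2 difference 0.26) or without S2 (0.25).

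Matricellular proteins, which modulate how cells meet the matrix rather than build it, ranged from means of 0.345 to 35.1 FPKM. THBS1, which encodes thrombospondin 1, an activator of latent TGF-beta, had 45.2, 39.6 and 20.5 FPKM, a mean of 35.1 ± 12.96 (SD, n = 3; adjusted p = 1.01e-05). THBS4 had 30.2, 29.2 and 27.1 FPKM, a coefficient of variation of 5.51%. THBS1 and THBS4 did not differ in a constant direction, since THBS1 was the higher in S1 and S2 and the lower in S3. THBS2, by contrast, was highest in S3, with 4.96, 5.20 and 9.09 FPKM. THBS3 lay just above the level at 1.41 ± 0.0415 FPKM. POSTN, which encodes periostin, had 1.48, 1.65 and 0.727 FPKM and was not told apart from it (adjusted p = 0.261), but lay above it without S3 (log2 difference 0.36). TNC, which encodes tenascin C, lay below it at 0.345 ± 0.0686 FPKM.

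Lysyl oxidases cross-link collagen and elastin. LOXL2, which acts on type IV collagen among other substrates, had 11.11, 10.5 and 9.63 FPKM and was the highest of the 5. LOX had 5.86, 4.86 and 2.50 FPKM, with S3 well under the other libraries. LOXL4 lay on both sides of the level and could not be distinguished from it, at 1.26, 1.09 and 0.955 FPKM (adjusted p = 0.321), while LOXL1, at 0.410 ± 0.0338, and LOXL3, at 0.0751 ± 0.0172, lay below it. LOX overlaps an unnamed protein-coding gene in the reference annotation, and LOXL3 overlaps HTRA2.

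PDGFRA and PDGFRB, the receptors for platelet-derived growth factors that mark fibroblasts and mural cells, both lay above 1 FPKM. PDGFRA had 4.24, 3.68 and 4.93 FPKM and PDGFRB had 1.91, 1.31 and 1.504 FPKM. All 4 genes for their ligands lay above the level too, with PDGFB at 8.60 ± 2.42, PDGFC at 4.72 ± 0.385, PDGFA at 4.49 ± 1.88 and PDGFD at 2.90 ± 0.433 FPKM (SD, n = 3). The share above the level over all genes was 65.6%.

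Ratios within a library show how partner chains and related genes stood to each other. They were taken for 16 pairs as differences in log2(FPKM + 1), and 15 had the same direction in all 3 libraries. With 3 libraries an exact two-sided sign-flip test cannot give a p under 0.25, so the ratios are descriptions. COL1A1 exceeded COL1A2 by 2.62 ± 0.15 on this scale (SD, n = 3), and its FPKM was 9.93, 9.12 and 11.7 times that of COL1A2 in S1, S2 and S3. COL3A1 stood at -2.49 ± 0.14 relative to COL1A1. The protein of type I collagen holds more COL1A1 than COL1A2 chains, as background, and the deposited values do not show which transcripts were translated.

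The remaining pairs ranged from close balance to large gaps. COL4A3 and COL4A4 stood at -0.0019 ± 0.19 to each other, a difference smaller than its spread. COL6A1 stood at -0.64 ± 0.06 relative to COL6A2, COL6A3 at -0.36 ± 0.05 relative to COL6A1, and COL5A1 at -0.94 ± 0.20 relative to COL5A2. COL4A5 exceeded COL4A6 by 1.19 ± 0.05, FBN2 exceeded FBN1 by 1.64 ± 0.12, and PDGFRA exceeded PDGFRB by 1.04 ± 0.20. NID1 exceeded NID2 by 0.35 ± 0.16. In the proteoglycans LUM stood at -4.06 ± 0.22 and BGN at -3.05 ± 0.64 relative to DCN. SPARCL1 stood at -4.18 ± 0.59 relative to SPARC, and the spread of this ratio and of BGN to DCN was the widest of the 16. COL11A1 exceeded COL11A2 by 1.68 ± 0.10, COL9A1 exceeded COL9A3 by 1.56 ± 0.20 and COL8A1 exceeded COL8A2 by 0.11 ± 0.05. These 3 gaps include a gene under 0.2 FPKM, and with a pseudocount of 0.1 the log2 ratio COL11A1/COL11A2 was 3.37, the log2 ratio COL9A1/COL9A3 was 3.56 and the log2 ratio COL8A1/COL8A2 was 0.51. With that pseudocount 11 of the 16 ratios moved by more than their SD, among them the log2 ratio SPARCL1/SPARC to -5.29, the log2 ratio LUM/DCN to -4.95 and the log2 ratio COL1A1/COL1A2 to 3.25, and none of them changed direction.

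**Figure D3:**
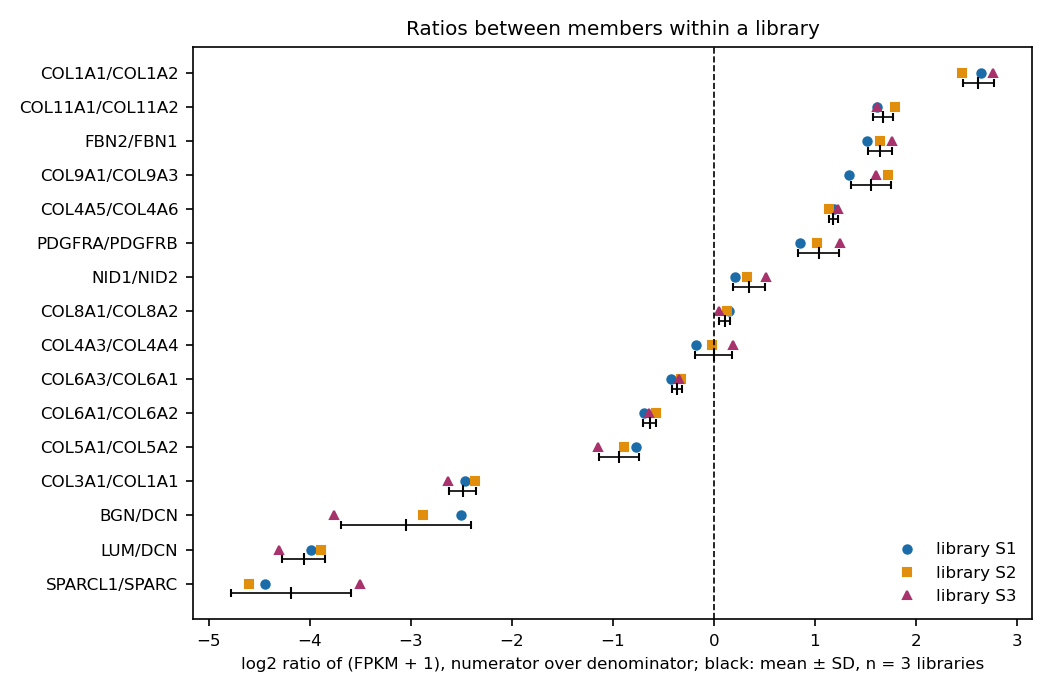
Log2 ratio of (FPKM + 1) between 2 genes within each library for 16 pairs, with points for S1, S2 and S3 and, under them in black, the mean and SD over the 3 libraries. COL1A1/COL1A2 lies farthest right at 2.62, COL4A3/COL4A4 straddles 0, and SPARCL1/SPARC lies farthest left at -4.18.

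The matrix genes stood somewhat lower in S3, relative to all genes, and 5 of them differed there by more than 1.5-fold. Over the 53 genes whose mean was 1 FPKM or more, the median of S3 minus the mean of S1 and S2 was -0.02 on the log2 scale, against 0.05 over all 12340 such genes. For S1 and S2 it was 0.07 and -0.01, against 0.02 and -0.07 over all such genes. SPARC, BGN, THBS1 and LOX were more than 1.5-fold lower in S3, 4 of 53 genes or 7.55%, where 2.76% of all genes were. The same 4 genes were more than 1.5-fold higher in S1 than the mean of S2 and S3, where 1.29% of all genes were. That mean includes the low values of S3, so it is not a separate observation. In S1 against S2 alone, SPARC had 52.3 against 37.1 FPKM and BGN 5.32 against 3.01. THBS1 had 45.2 against 39.6 FPKM and LOX 5.86 against 4.86. THBS2 alone was more than 1.5-fold higher in S3, where 1.21% of all genes were. No gene of the set passed 1.5-fold in S2 in either direction. Each library is a single sample here, so none of these differences was tested.

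SPARC had 14.4 FPKM in S3, against 52.3 in S1 and 37.1 in S2, a log2 difference of -1.55 for S3 from the mean of the others. BGN had 1.37 FPKM in S3, against 5.32 and 3.01, a difference of -1.09. THBS1 differed by -1.01 and LOX by -0.86, while THBS2 differed by 0.73. POSTN and NID2 followed at -0.57 and -0.56 and passed 1.5-fold with a pseudocount of 0.1. In contrast COL1A1 differed by 0.11, DCN by -0.02, COL6A1 by 0.0014 and FBN1 by 0.0094. Of the 53 genes, 24 were lowest in S3, or 45.3%, where 33.1% of all such genes were. Another 18 were highest in S3, or 34.0%, where 50.04% of all such genes were, and 26 were highest in S1, or 49.1%, where 36.2% of all such genes were. The median of the set relative to all genes was negative for S3 and positive for S1 and S2 under each scaling, pseudocount and filter tried.

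**Figure D4:**
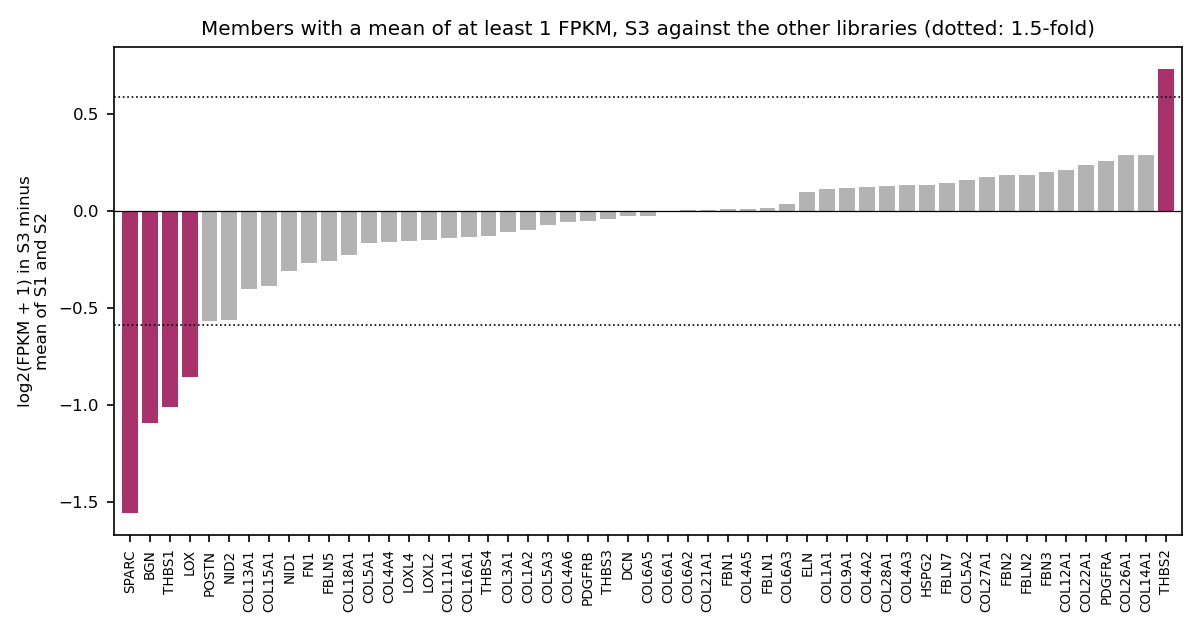
Log2(FPKM + 1) in S3 minus the mean of S1 and S2 for the 53 genes whose mean was 1 FPKM or more, as bars in order of size, with dotted lines at 1.5-fold. SPARC, BGN, THBS1 and LOX lie below the lower line, THBS2 lies above the upper line, and most fibrillar, type IV and type VI collagen genes lie near 0.

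Markers of somatic cells of the testis differed between the libraries as well. Among all genes 65.6% lay above 1 FPKM. Sertoli and Leydig cell markers, at 64.7% and 66.7%, were near that share. Summed over 10 markers of peritubular myoid cells, 9 of which lay above 1 FPKM, the level was 75.4 FPKM in S3, against 131 in S1 and 104 in S2. Over 17 Sertoli cell markers, 11 of them above the level, it was 510 FPKM in S3, against 826 in S1 and 701 in S2. Over 9 Leydig cell markers, 6 of them above the level, it was 15.9 FPKM in S3, against 31.6 in S1 and 27.0 in S2. Of the 7 Leydig cell markers with a mean of 1 FPKM or more, 3 were over 1.5-fold lower in S3, CYP11A1, SCARB1 and INSL3. For all genes of such a mean this share was 2.76%. NR5A1 was highest in S3, at 2.92 FPKM, against 2.38 and 2.28. TAGLN, an actin-binding protein of smooth muscle, had 8.87 FPKM in S3, against 37.2 in S1 and 24.4 in S2, and CLU, abundant in Sertoli cells, had 125 FPKM in S3, against 325 and 234. Not all markers followed these examples. Of 9 myoid markers with a mean of 1 FPKM or more, 2, TAGLN and SMTN, were more than 1.5-fold lower in S3. Of 11 such Sertoli cell markers 5 were, among them CLU. ACTA2 of myoid cells had 6.41 FPKM in S3, against 7.73 and 6.11, and WT1 of Sertoli cells had 41.9, against 45.6 and 40.9. Over 10 endothelial markers, 4 of them above the level, the sum was 20.3 FPKM in S3, against 25.7 and 24.3. In 14 leukocyte markers, 2 of them above the level, the sum was 26.9 FPKM in S3, against 30.7 and 26.2. This sum was mostly CD74, at 15.5 FPKM in S3, against 19.6 and 16.0. The other 2 genes of that list with a mean over 1 FPKM were highest in S3, ITGAM at 4.45 FPKM, against 3.40 and 3.51, and LYZ at 2.08 FPKM, against 1.09 and 1.33. Germ cell markers summed to 1102 FPKM in S3, against 973 in S1 and 1025 in S2. No marker of these lists was at 0 in all libraries, although LHCGR was at 0 in S1 and S3 and the means of STAR and LHCGR of Leydig cells and of GATA1 and DHH of Sertoli cells were 0.0768 FPKM and less. The part of these cells in the levels of matrix genes was not tested, and in bulk RNA fewer cells of a type and less RNA per cell cannot be told apart.

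The name of the set recalls fibroblasts, so other stromal genes were examined. Of 12 genes known from fibroblasts and stroma that are not in the set, 5 lay above 1 FPKM and 7 below. Among all genes 65.6% lay above and 28.5% below. The highest were GSN at 27.1 ± 0.0688, PDPN at 18.7 ± 7.42, NR2F2 at 4.65 ± 1.10 and THY1 at 1.96 ± 0.334 FPKM, and other cell types are known to express each of these. PI16 at 0.0662 ± 0.0435 and S100A4 at 0.0108 ± 0.0188 FPKM were lowest, with S100A4 at 0 in S2 and S3, and TCF21 and DPT were also below the level. The summed level of the 12 genes was 46.1 FPKM in S3, against 63.7 in S1 and 55.8 in S2. PDPN had 11.0 FPKM in S3, against 25.7 and 19.3. It was the only gene of the 5 with a mean of 1 FPKM or more that was over 1.5-fold lower in S3, where 2.76% of all such genes were. GSN had 27.1, 27.2 and 27.1 FPKM in S1, S2 and S3, and CD34 was highest in S3, at 1.55 FPKM, against 1.23 and 1.14. Among some fibroblast genes of the set itself, DCN and COL1A1 were high while COL1A2, COL3A1 and LUM were near 1 FPKM. COL6A1 at 7.17 and PDGFRA at 4.29 FPKM lay between. These genes stood at unequal levels, and which cells contributed their RNA was not tested.

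**Figure D5:**
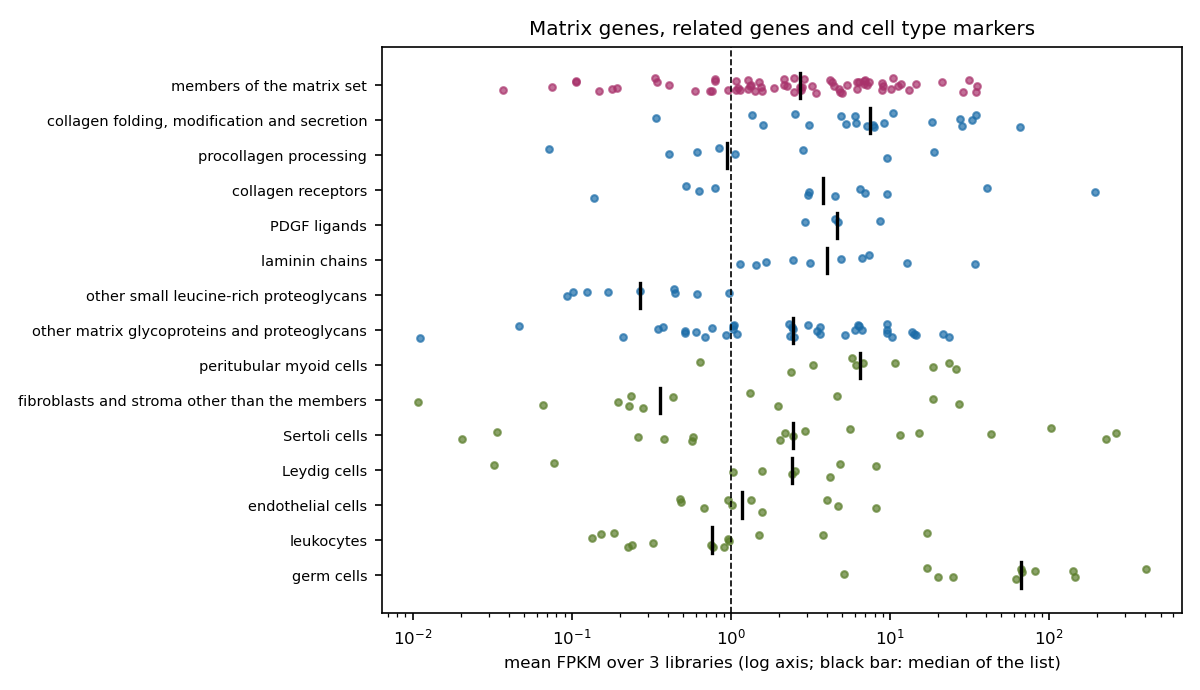
Mean FPKM over 3 libraries of each gene on a log axis for the matrix set, 7 lists of related genes and 7 lists of cell type markers, with a black bar at the median of each list and a dashed line at 1 FPKM. The median is 2.70 FPKM for the matrix set, 7.49 for collagen folding and secretion, 0.268 for other small leucine-rich proteoglycans and 66.7 for germ cell markers.

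The machinery that folds and exports collagen was well represented. Of 20 measured genes, 19 lay above 1 FPKM, where 65.6% of all genes did, and P3H3 lay below that level. The highest were P4HB, a subunit of prolyl 4-hydroxylase and an isomerase of disulfide bonds, at 65.6 ± 4.89 FPKM, SEC24D of the COPII coat at 34.5 ± 2.47, MIA3, which loads collagen into transport carriers, at 32.5 ± 1.73, and SEC23A at 28.3 ± 0.337 (SD, n = 3). P4HA3, at 1.35 ± 0.136, and P3H3, at 0.340 ± 0.158 FPKM, were lowest. SERPINH1, the collagen chaperone HSP47, was named after its values were seen: it had 6.02 FPKM in S3, against 14.4 in S1 and 10.7 in S2, and was with P3H1 among 2 of 19 genes of this list more than 1.5-fold lower in S3, where 2.76% of all genes were. COLGALT2, a galactosyltransferase of collagen, was more than 1.5-fold higher there, at 3.85 FPKM in S3, against 1.79 in S1 and 1.95 in S2. P4HB and the coat proteins also serve cargo other than collagen.

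Processing enzymes were fewer, with 37.5% above 1 FPKM, where 65.6% of all genes were. Of 8 measured genes, FURIN at 18.8 ± 3.25 FPKM, BMP1, which removes the C-propeptide of procollagen, at 9.63 ± 1.02 and ADAMTS3 at 2.84 ± 0.228 lay above the level, 4 lay below and PCOLCE, at 1.05 ± 0.108, was not told apart. The lowest were ADAMTS2, which removes the N-propeptide, at 0.407 ± 0.0575, and ADAMTS14, at 0.0716 ± 0.0153 FPKM.

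Of 12 measured collagen receptors, 8 lay above 1 FPKM and 4 below. The share above, 66.7%, was near the 65.6% of all genes. ITGB1, the integrin subunit shared by many matrix receptors, stood at 194 ± 17.1 FPKM, CD44 at 40.8 ± 18.5, and the receptor kinases DDR1 and DDR2, which bind collagen directly, at 9.57 ± 0.913 and 6.96 ± 0.577. Of the integrin subunits that pair with ITGB1 to bind collagen, ITGA2 at 4.53 ± 2.31 and ITGA11 at 3.04 ± 0.664 FPKM lay above the level, while ITGA10 at 0.795 ± 0.0518 and ITGA1 at 0.522 ± 0.109 lay below. LAIR1, of immune cells, was lowest at 0.138 ± 0.0569 FPKM.

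Laminins, which share basement membranes with the type IV collagens and nidogens, lay above 1 FPKM in 9 of 10 measured genes. Among all genes this share was 65.6%. LAMC1 stood at 33.9 ± 1.57 FPKM, LAMA4 at 12.8 ± 0.722, LAMA1 at 7.37 ± 0.547 and LAMA5 at 6.63 ± 1.86, LAMB3 was second lowest at 1.44 ± 0.0648, and LAMB2, at 1.14 ± 0.491, was not told apart from the level. Other small leucine-rich proteoglycans were scarce, since 8 of 9 measured genes lay below 1 FPKM, where 28.5% of all genes did. EPYC, at 0.972 ± 0.279 FPKM, was not told apart from the level. PRELP at 0.101 ± 0.0263 and ASPN at 0.0939 ± 0.0535 FPKM were lowest. Of 38 other matrix glycoproteins and proteoglycans, 23 lay above the level, 9 below, and 6 were not told apart. The share above, 60.5%, was near the 65.6% of all genes. SPOCK3 at 23.5 ± 2.64, MFAP1 at 21.6 ± 1.28, CCN2 at 14.6 ± 4.44 and ECM1 at 14.2 ± 8.04 FPKM were highest, and TNR at 0.0463 ± 0.0195 and MATN4 at 0.0111 ± 0.00462 FPKM were lowest. At a mean of 1 FPKM or more this list held 27 genes. The 3 genes CCN2, CCN1 and ECM1 were more than 1.5-fold lower in S3, where 2.76% of all such genes were. The product of MFAP1, despite its name, is known as a splicing factor.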

How the data were processed

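RNA of 3 libraries of SSEA4-positive spermatogonia was analysed as 1 group. Per the labels' protocols, ribosomal RNA was depleted, directional libraries were read as 150 bp pairs on a HiSeq 4000, and the authors used cutadapt 1.9.3 for trimming, HISAT2 2.0.4 for alignment and Cuffdiff of Cufflinks to obtain FPKM, the unit of the deposited table. The strand setting of the counting is not given in the sources used here. Because susScr3 and Sscrofa11.1 both appear in the submitters' processing notes, coordinates are left out. Column names match the group but no single sample.

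Members were found by symbol in the table, and all 68 with a reference symbol had the same symbol there. Of the members, 67 were placed in the reference gene table (Sscrofa11.1), where 12 overlap a protein-coding gene. Values under 1e-06 were set to 0. Values were tested as log2(FPKM + 1) in limma 3.58.1 under R 4.3.3, with an intercept only, eBayes with a trend, two-sided, against 1 FPKM, with Benjamini-Hochberg adjustment over 17949 genes and a threshold of 0.05. The test was checked on simulated data in which all genes had the same spread, so the check does not cover genes of unequal spread. Rows whose table and reference symbols differ were not used in lists. Values in every library are given for members whose mean reached 5 FPKM and the 4 nearest to 1 FPKM on either side, with others added where a comparison turned on them; of each list, the 4 highest and 2 lowest genes were to be named, and others were named after their values were seen. Members and lists were chosen with earlier results of these data known. Python 3.11.15 was used for all other steps. No sequences were used.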

Additional observations from a re-analysis of the deposited data

How the results depend on the processing

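Depth is unknown, so the precision of low values is not known. No paired analysis was possible because the libraries form 1 group. The number of matrix genes above 1 FPKM stayed between 44 and 58 over all alternatives. The number below, 14, was 3 when only genes averaging 0.5 FPKM or more were tested and 7 after taking out ribosomal protein and mitochondrial genes and rescaling. The count of all genes below 1 FPKM, 5111, was 798 and 2927 in these settings, and listed related genes 9 and 9, against 26. Fewer low genes are tested in the first setting, and values are scaled upwards in the second. The median log2 level of the set, 1.84, was 1.42 with a pseudocount of 0.1, 2.16 with the filter, 2.03 with each library rescaled to 1000000 and 3.15 with those genes removed.

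With those genes removed, log2 differences from the level turned positive for COL17A1 (0.77), COL23A1 (0.70), COL25A1 (0.49), COL2A1 (0.74), COL6A6 (0.014), LOXL1 (0.17), LUM (0.94), SPARCL1 (0.65) and TNC (0.032). Rescaling each library to 1000000 put COL4A4 (0.20), COL6A5 (0.25) and LOXL4 (0.21) above the level. LUM was also positive after rescaling to 1000000 (0.081), and ranged from -0.159 to 0.082 when a library was left out.

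The median difference of S2 over the set changed sign from -0.010 to 0.0726 with those genes removed and 0.0333 under quantile normalization. That of S3 changed sign from -0.0241 to 0.105 after rescaling to 1000000, which moved all genes to 0.17; relative to all genes it was -0.08 as deposited and between -0.09 and -0.03 in the alternatives. Genes more than 1.5-fold higher in S1 numbered 2 after that rescaling, SPARC and BGN. In S2, POSTN was higher with a pseudocount of 0.1 and with those genes removed (1 gene in each), and COL26A1 was lower with that pseudocount (1 gene). Under quantile normalization 69 of 69 genes of the set kept their call.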
